A study of Mus musculus with 4 samples.

Results

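Mov10l1, Asz1 and Dnmt3l, 3 genes of the germline machinery that silences transposons, were examined in lists of enriched regions (peaks) of H3K27me3, a histone mark (3 methyl groups on lysine 27 of H3) that Polycomb complexes place on silent genes. They are 3 of 21887 protein-coding genes placed on the mouse chromosomes. They were chosen by name, with their peak numbers in these lists known, so those numbers are a description and support no test. The mark was mapped by ChIP-seq (chromatin immunoprecipitation followed by sequencing) in an established mouse glioblastoma cell line, GL261. Control cells (Con) were compared with cells labelled IR, taken as irradiated because the series is titled as a study of radiation treatment. Each condition had 1 H3K27me3 library and 1 input library (DNA without immunoprecipitation), so there were 4 libraries, of which the 2 lists of the H3K27me3 libraries were analysed. No other treatment or genetic change of the cells is labelled, and neither the radiation dose nor the interval before harvest is stated in the labels. With 1 library per group there was no replicate error to compare with, and a difference between the lists compares those libraries, not the conditions. The identity of the cells was not checked, since a list of H3K27me3 peaks does not measure the expression of marker genes.

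PIWI proteins of germ cells bind small RNAs (piRNAs) that guide them to transposon transcripts and, in fetal male germ cells, to transposon DNA that is then methylated. Mov10l1 encodes the RNA helicase that feeds piRNA precursors into this pathway, and Asz1 (also called Gasz) encodes a scaffold on the outer mitochondrial membrane where piRNAs are processed. Dnmt3l encodes a partner of the de novo DNA methyltransferases that has no catalytic activity of its own and is needed for methylation of transposons and of imprinted genes in germ cells. In somatic cells many genes of this kind are kept silent by methylation of CG pairs in their promoters and by a variant Polycomb complex.

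The promoters are shown first. No peak of either list reached them, and those of Mov10l1 and Asz1 hold more CG pairs than most. The share of all promoters without a peak is not given here. Of all 21887 genes, 19571 had no peak in either list over the gene with 2000 bp on each side. The bare promoters are thus not read as a trait of these genes. The listed peak closest to a tabulated start was 4.88 kb downstream of it at Mov10l1, 59.5 kb at Asz1 and 6.13 kb at Dnmt3l. The bases before the outermost annotated start of each gene are given 5' to 3' on the strand of the gene, from RefSeq (GRCm38.p6), with CG pairs in capitals. They lie at chr15:88982744-88982890 (plus strand, Mov10l1, 147 bases), chr6:18109062-18109311 (minus strand, Asz1, 250 bases) and chr10:78042037-78042286 (plus strand, Dnmt3l, 250 bases, within the overlapping gene Aire).
Mov10l1: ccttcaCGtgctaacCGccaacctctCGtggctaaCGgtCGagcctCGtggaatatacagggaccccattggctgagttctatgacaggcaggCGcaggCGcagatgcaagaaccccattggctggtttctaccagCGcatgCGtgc
Asz1: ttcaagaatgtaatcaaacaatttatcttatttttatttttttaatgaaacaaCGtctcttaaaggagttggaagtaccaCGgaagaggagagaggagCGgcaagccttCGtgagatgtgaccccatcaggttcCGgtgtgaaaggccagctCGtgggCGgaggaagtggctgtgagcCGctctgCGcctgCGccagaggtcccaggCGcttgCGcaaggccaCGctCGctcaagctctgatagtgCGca
Dnmt3l: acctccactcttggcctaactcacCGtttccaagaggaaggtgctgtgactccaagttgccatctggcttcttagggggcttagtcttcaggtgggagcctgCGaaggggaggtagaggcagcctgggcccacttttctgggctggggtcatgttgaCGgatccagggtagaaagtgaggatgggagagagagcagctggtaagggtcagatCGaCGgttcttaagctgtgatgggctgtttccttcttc
The Mov10l1 stretch stops at the gene's annotated span, which takes in the last 103 of the 250 bases before the tabulated start.

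Before its tabulated start, over 250 bases, Mov10l1 had 19 CG pairs, and 17.9% of the 32851 mouse promoters of the table had more. The Asz1 promoter had 15, with 25.4% of promoters above it. The 3 tabulated starts of Dnmt3l had 5, 4 and 3, against a median of 6 over all promoters, so by this count Dnmt3l lies below the middle. The E-box letters CACGTG, which read the same on both strands and contain a CG pair, stood once before Mov10l1 and once before the second start of Dnmt3l, and 6.02% of all promoters held them. The letters GCGGGA, searched on both strands, stood in none of the 5 member promoters and in 16.9% of all. The letters CNGTT, searched on both strands, stood 2 times before Mov10l1, 3 times before the first start of Dnmt3l and nowhere before Asz1 or the other starts of Dnmt3l, against 74.2% of all promoters with at least 1.

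In gene regions, taken as the annotated gene with 2000 bp on each side, the control list held 1 peak at Mov10l1, 1 at Asz1 and 0 at Dnmt3l. The irradiated list held 15 at Mov10l1, 0 at Asz1 and 1 at Dnmt3l. Among all protein-coding genes, 6.05% had a listed control peak and 8.2% a listed irradiated peak, whatever its strength. Mov10l1 was in both lists, as were 3.67% of all genes, Asz1 in the control list alone (2.38%), and Dnmt3l in the irradiated list alone (4.53%). Each of the 3 thus showed a different pattern, and since these numbers are what the genes were chosen on, nothing further is read from the shares.

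**Figure D1:**
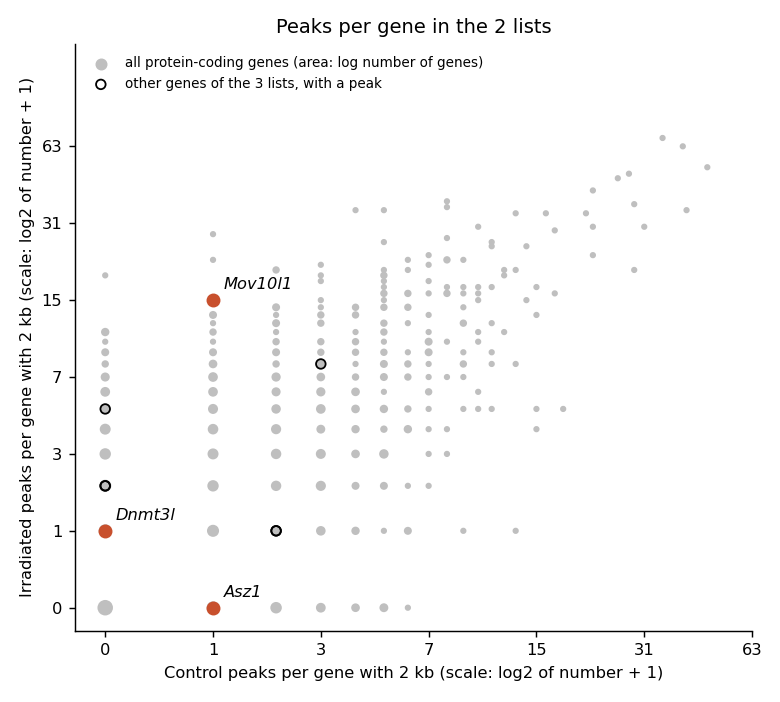
Peaks per gene with 2000 bp on each side in the control list (x axis) and the irradiated list (y axis), both on a scale of log2 of the number plus 1; grey points are all protein-coding genes and open circles the other genes of the 3 gene lists that hold a peak. Mov10l1 lies at 1 control and 15 irradiated peaks, Asz1 at 1 and 0, and Dnmt3l at 0 and 1.

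Mov10l1 spans 72.3 kb on the plus strand of chromosome 15 (chr15:88982891-89055152). Its irradiated peaks all lay inside the annotated gene, and 13 of the 15 had their summit within 49.0% of its length from the 5' end. None lay at the start: the first had its summit 5.11 kb from the 5' end of the gene. Exons and introns are not resolved in the annotation used here.

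The first 6 irradiated peaks formed a stretch of 10.1 kb with a median fold of 4.15 (chr15:88987878-88997975). Fold here is the authors' fold enrichment at the summit over the local background, and q is the authors' p-value adjusted over the genome. Reads and background at summits, here and below, were recovered from fold and p under an assumed Poisson model. The first 4 had folds of 3.80, 4.49, 3.82 and 3.32, with q of 0.0708, 0.0536, 0.149 and 0.173, in order from the 5' end. The strongest stood next, and only these last 2 of the stretch, 201 bp apart, had a q below 0.05. One, at chr15:88996503-88997433, was the widest Mov10l1 peak at 931 bp and had a fold of 5.07, a q of 0.00681 and 18 ChIP reads at its highest summit. The other, at chr15:88997635-88997975, had a fold of 4.88, a q of 0.00557 and 17 reads. Of all irradiated peaks, 6.20% and 7.11% had a higher fold than these.

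The next 7 peaks spread over 13.8 kb (chr15:89004729-89018500), with a median fold of 3.51 and a highest fold of 3.95, 34.2 kb from the 5' end. None of them had a q of at most 0.05. The last 2 peaks stood alone, 46.0 and 62.5 kb from the 5' end, with folds of 2.77 and 2.55. The 2 peaks with a q below 0.05 were thus the fifth and the sixth from the 5' end, and the 2 peaks nearest the 3' end had folds below the median of the list, as the plot of peaks along Mov10l1 shows.

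**Figure D2:**
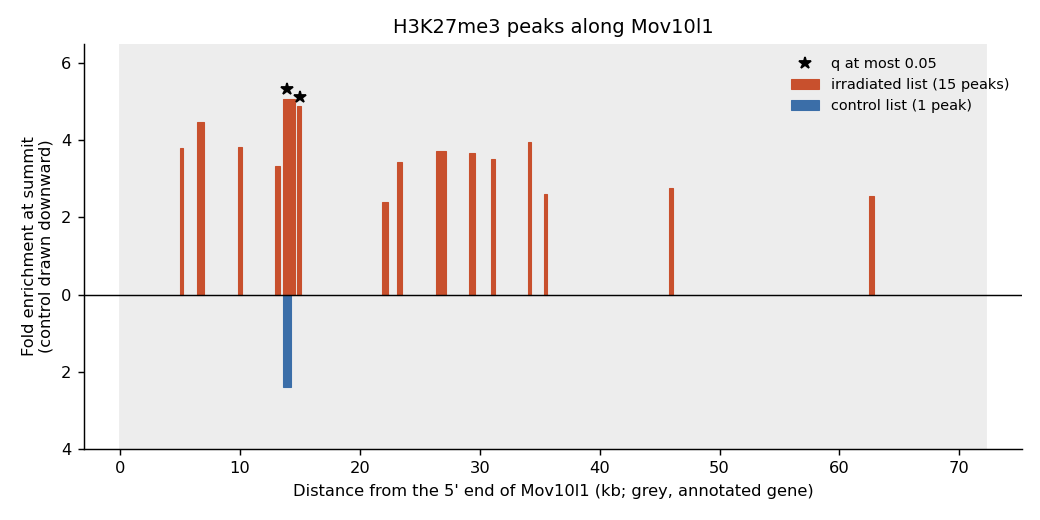
Peaks along Mov10l1 by distance from its 5' end in kb (x axis) and the authors' fold enrichment at the summit (y axis, irradiated upward, control downward); bar width is peak width, the grey area is the annotated gene and stars mark a q of at most 0.05. Of the 15 irradiated peaks, 13 have their summit within 49.0% of the gene's length from its 5' end, and the 1 control peak lies under the widest of them.

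The control peak of Mov10l1 lay at the same place as the widest irradiated peak (chr15:88996501-88997106). The overlap of 604 bp took in 99.7% of the control peak and 64.9% of the irradiated one, with the highest summits 120 bp apart. It was weak (fold 2.41, q 1), and it ranked 9602 by p among the 9866 control peaks. The control summit had 10 reads over a background of 1.99 scaled reads (ChIP reads brought to the depth of the input), and the irradiated summit had 18 reads over 1.16. The irradiated peak also held a further summit with 15 reads over 2.00 and a fold of 3.10. The folds come from lists that were scaled separately. The other 14 irradiated peaks of Mov10l1 overlapped no control peak. The nearest to the control peak, just 5' of it, was 306 bp away and the farthest 48.2 kb. The share of all irradiated peaks that overlap no control peak is not given here, so the 14 are not read as a trait of Mov10l1.

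Over the 15 irradiated peaks of Mov10l1 the fold ran from 2.39 to 5.07, with a median of 3.68, and 8 of them exceeded the median of the whole irradiated list, 3.67. The reads at their summits ran from 9 to 18 with a median of 12, against a list median of 11. The peaks covered 8.75% of the gene region, while the control peak covered 0.795%. By fold and reads the typical Mov10l1 peak thus lay near the middle of its list. The background under them was raised in part: in 10 of the 15 it was at least 1.5 times the lowest of the list, with a range of 0.704 to 2.57 scaled reads, and the control peak had 2.17 times its list's lowest. The part of a raised background in these peaks was not tested.

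**Figure D3:**
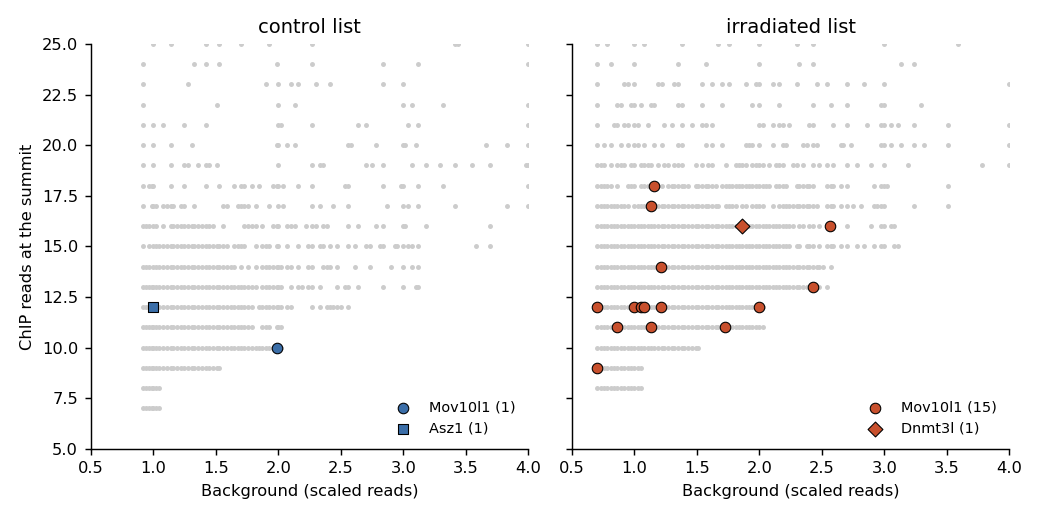
ChIP reads at the summit (y axis) against the background in scaled reads (x axis), recovered from each peak's fold and p, in the control (left) and irradiated (right) list; grey points are all peaks within the axes, which leave out higher values. The Mov10l1 peaks of the irradiated list run from 9 to 18 reads, and the Mov10l1 peak of the control list, with 10 reads, lies on the lower edge of the listed peaks at its background.

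The irradiated list as a whole held 1.63 times as many peaks as the control list. Few reads separate a listed site from an unlisted one: where the background was lowest, 7 reads were enough for a control peak and 8 for an irradiated peak. Sites without a control peak may thus carry signal below the calling threshold. Peaks were frequent on chromosome 15 in general, where 17.5% of protein-coding genes were listed for the control library and 20.2% for the irradiated one. Of the 88 genes of chromosome 15 that span 50 to 100 kb, 64 had no control peak, 63 had no irradiated peak, and 4, Mov10l1 among them, had at least 15 irradiated peaks.

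The surroundings of Mov10l1 were uneven. The irradiated list had 197 peaks per Mb in its region, 35 per Mb in the 1 Mb on either side and 27.9 per Mb on the whole chromosome. The corresponding control densities were 13.1, 13 and 22.2. On the 5' side, the span of Mlc1, a gene for a membrane protein of astrocytes, lies 198 bp from that of Mov10l1. Mlc1 held 3 irradiated peaks and no control peak. Among these, the peak of lowest q reached a fold of 3.94 at a q of 0.0536. Ttll8, a tubulin glycylase gene further out, held 4 irradiated peaks and 1 control peak, and the peaks of lowest q had folds of 3.65 and 3.02. On the 3' side, Panx2, Trabd, Selenoo, Tubgcp6, Hdac10, Mapk12 and Mapk11 held none in either list. The next peak beyond the 3' end of Mov10l1 was 340 kb away in the irradiated list and 342 kb away in the control list. The run of irradiated peaks thus reached from Ttll8 through Mlc1 into Mov10l1 and ended within it.

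**Figure D4:**
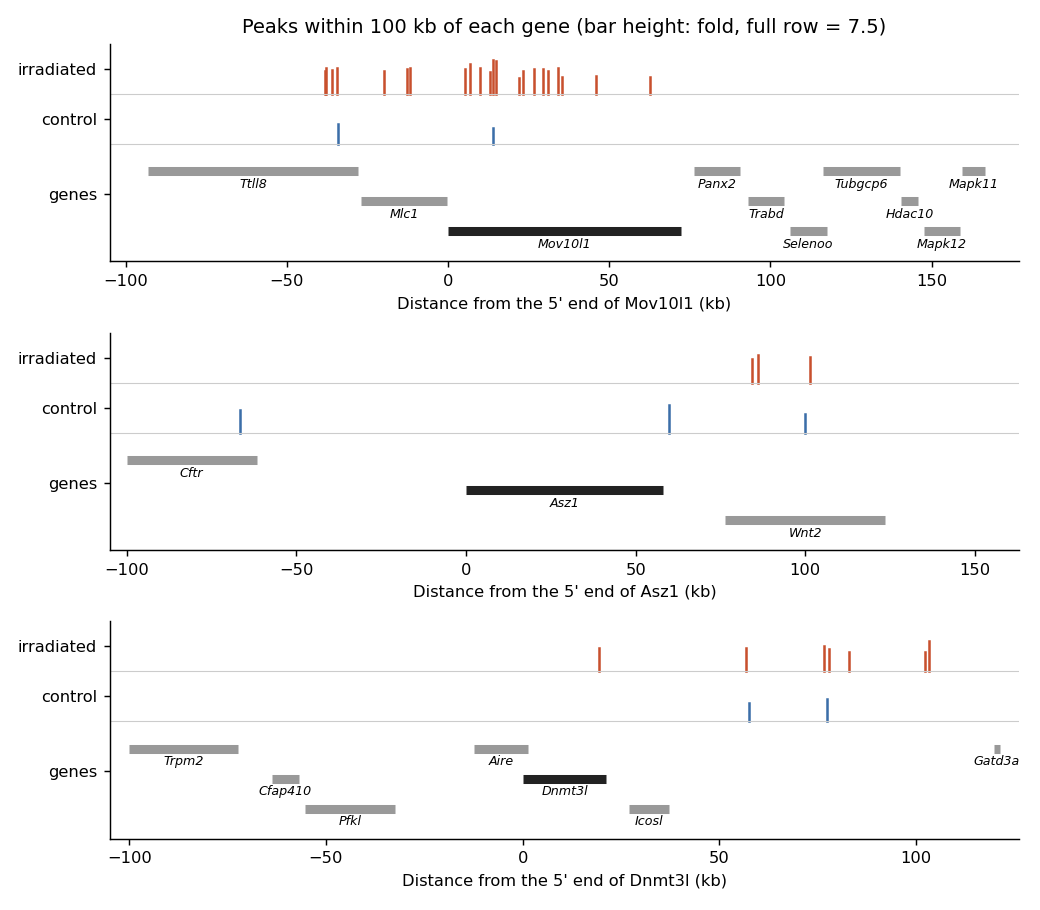
Peaks of the control and irradiated lists within 100 kb of Mov10l1, Asz1 and Dnmt3l, by distance from the 5' end of each gene in kb, with the protein-coding genes below; bar height is the authors' fold. Around Mov10l1 the 22 irradiated peaks lie in and upstream of the gene, while Asz1 has no peak within its span and Dnmt3l has 1 near its 3' end.

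Asz1 spans 58.1 kb on the minus strand of chromosome 6 (chr6:18050964-18109061), and no peak of either list lay inside it. Its 1 control peak (chr6:18049182-18049526) lay 1438 bp beyond the 3' end of the gene, 59.7 kb from the start. It had a fold of 4.22, 12 reads over a background of 1.00 scaled reads and a q of 0.115, and 9.71% of control peaks had a higher fold. Within its list it was thus stronger than the control peak of Mov10l1. The nearest irradiated peak was 24.3 kb from it, in the neighbouring gene Wnt2, a ligand of the Wnt pathway. Wnt2 held 1 control and 3 irradiated peaks at different sites, and Cftr, the chloride channel gene on the other side, held 1 control peak (fold 3.43, q 0.831). From Asz1 away from Wnt2, the irradiated list had no peak for 3751 kb past the gene. Peaks were sparse there in both lists, with 3 control and 1.5 irradiated peaks per Mb in the 1 Mb on either side, against 8.37 and 13.3 on the whole of chromosome 6, where 12.3% of genes held a control and 14.5% an irradiated peak.

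Dnmt3l spans 21.3 kb on the plus strand of chromosome 10 (chr10:78042287-78063622) and held no control peak. Its 1 irradiated peak (chr10:78061468-78062150) was 683 bp wide and lay inside the gene near its 3' end, with the summit 19.4 kb from the 5' end and 6.36 kb past the nearest of the 3 tabulated starts. It had a fold of 3.44, 16 reads over a background of 1.86 scaled reads and a q of 0.149. Its fold was below the median of its list and its reads above it, and the background under it was 2.65 times the lowest of the list. The nearest control peak was 37.5 kb away. None of the 6 neighbouring protein-coding genes within 100 kb, Aire, Icosl, Pfkl, Cfap410, Trpm2 and Gatd3a, held a peak in either list. Within 100 kb there were still 7 irradiated peaks, that of Dnmt3l included, and 2 control peaks, the others all beyond its 3' end. The 1 Mb on either side held 5 control and 8.5 irradiated peaks per Mb, more than the chromosome as a whole. The chromosome had fewer peaks per Mb than those of the other two genes, namely 4.26 (control) and 5.05 (irradiated), and 8.49% of its genes held a control and 8.59% an irradiated peak.

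**Figure D5:**
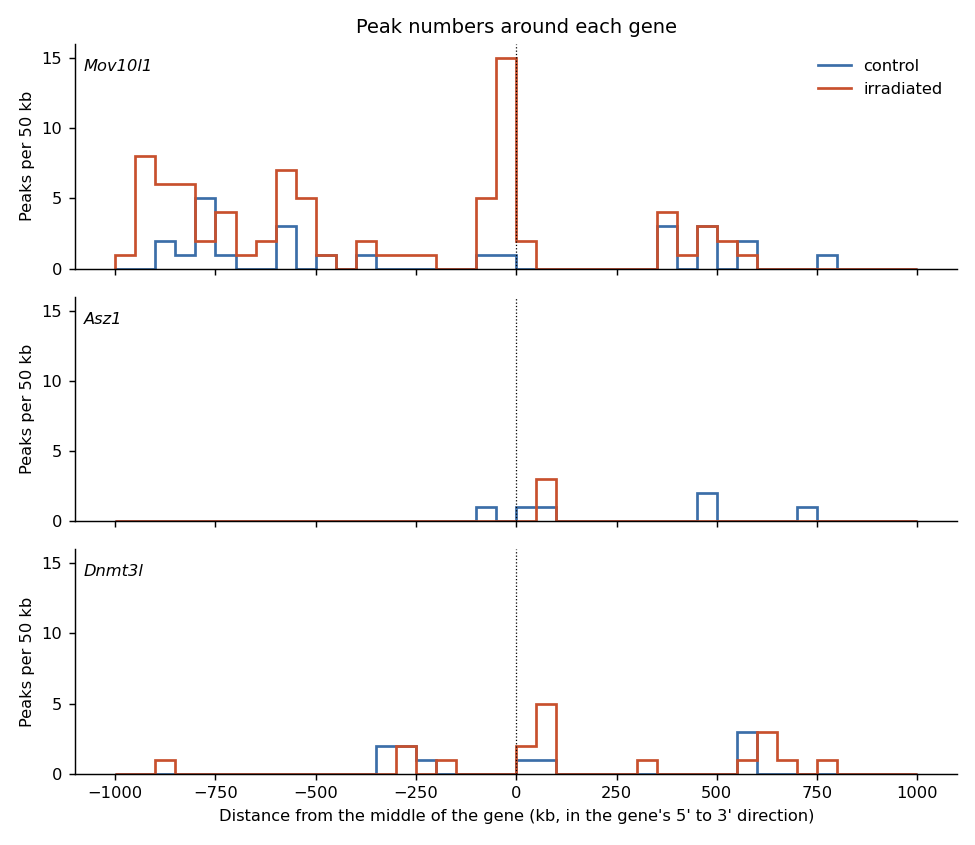
Number of peaks per 50 kb (y axis) within 1000 kb of the middle of Mov10l1, Asz1 and Dnmt3l (x axis, in the direction of the gene), in the control and irradiated lists. The highest bin, with 15 irradiated peaks, covers the 5' part of Mov10l1 and bases before it. It takes in peaks of Mlc1 and leaves out the last Mov10l1 peaks, so these are not the gene's own 15. The bins around Asz1 and Dnmt3l hold at most 3 and 5.

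The genes whose pair of peak numbers was most like that of each member were taken from the same chromosome, over the 2 libraries, by nearest gene length. Enthd1 (chr15:80451715-80565183, 113 kb) was the 1 other gene of chromosome 15 with 1 control and 15 irradiated peaks. For Asz1, 29 genes of chromosome 6 had 1 control and 0 irradiated peaks, and the nearest in length were Cep41, Aass and Plcz1. For Dnmt3l, 19 genes of chromosome 10 had 0 and 1, and the nearest were Glipr1l2, Ggt5 and Rdh9. A pair of such low numbers is a weak likeness.

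Of 35 genes of the piRNA pathway, 4 (11.4%) were listed for the control library and 7 (20%) for the irradiated one. Among all genes the shares were 6.05% and 8.2%. The 35 include 2 members chosen with their peak numbers known, Mov10l1 and Asz1. These are 2 of the 4 control genes, and Mov10l1 is 1 of the 7 irradiated ones, so nothing is read from the shares. Both lists marked 3 (Mov10l1, Piwil4 and Gtsf1), the control list alone 1 (Asz1), the irradiated list alone 4 (Fkbp6, Tdrd12, Stk31 and Spocd1), and neither list 27. Over all 21887 genes, the first 3 of these groupings made up 3.67%, 2.38% and 4.53%, and 19571 genes had no peak. The median number of peaks per gene was 0 in both lists, as over all genes. The list genes are longer, with a median span of 37.4 kb against 17.2 kb, and longer genes have more room for peaks. Of the 35 genes, 6 lie on chromosomes 6, 11 and 15, and genes of chromosomes 6 and 15 were listed more often, as given above. The part of length or of chromosome in the shares was not tested. Under a q limit of 0.05 the numbers were 0 (control) and 3 (irradiated) of the 35, Mov10l1 among the 3. Of all 21887 genes, 113 (0.516%) had such a control peak and 455 (2.08%) such an irradiated peak.

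Fkbp6, which encodes a cochaperone needed to load piRNAs, held 5 irradiated peaks and no control peak. That of lowest q, inside the gene on chromosome 5 (chr5:135341998-135342425), had a fold of 4.81, 13 reads and a q of 0.0119. Piwil4, which encodes the nuclear PIWI protein that directs DNA methylation, held 2 control peaks and 1 irradiated peak at different sites. The irradiated peak reached a fold of 4.36 (q of 0.0211), and the control peak of lower q a fold of 3.60 and a q of 0.385. Gtsf1, which encodes a zinc finger partner of PIWI proteins, held 2 control peaks and 1 irradiated peak. The control peak of lowest q had a fold of 3.43 and lay outside the gene, and the irradiated peak had a fold of 4.49. Tdrd12, a Tudor domain gene of piRNA amplification, held 2 irradiated peaks, that of lower q at a fold of 4.49 (q 0.0536). Spocd1, which links the nuclear PIWI protein to DNA methylation and is named to complete the count, held 1 irradiated peak with a fold of 3.10 over a background of 2.00 scaled reads. The control peaks of Piwil4 and Gtsf1 thus had a q of at least 0.385, and that of Mov10l1 a q of 1.

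Of 24 genes of DNA methylation in germ cells, 0 had a control peak and 1 (4.17%), Dnmt3l itself, an irradiated peak, against 6.05% and 8.2% of all genes. The methyltransferase genes Dnmt1, Dnmt3a and Dnmt3b, the maintenance factor gene Uhrf1 and the demethylation genes Tet1, Tet2 and Tet3 had none in either list. Of 26 germline genes that somatic cells keep silent through promoter methylation or the variant Polycomb complex, 3 (11.5%) were listed for each library. Among all genes the shares were 6.05% (control) and 8.2% (irradiated). No peak in either list was found at 22 of the 26, Dazl, Ddx4, Mael and Sycp3 among them, and at 19571 of all 21887 genes. Those marked were Mov10l1, Asz1, Stk31 and Tex14, the first 2 chosen with their peak numbers known. Mov10l1 and Asz1 are 2 of the 3 control genes, and Mov10l1 is 1 of the 3 irradiated ones. Nothing is therefore read from the shares of this list. The genes of this list had a median span of 36.4 kb against 17.2 kb, and 7 of the 26 lie on chromosomes 6, 11 and 15. On chromosome 6, 12.3% and 14.5% of genes held a control and an irradiated peak, and on chromosome 15, 17.5% and 20.2%. The part of either was not tested. Stk31, a Tudor domain kinase gene of germ cells, held 2 irradiated peaks, and that of lowest q had a fold of 3.84 (q 0.149). Tex14, which encodes a protein of the bridges between germ cells and lies on chromosome 11, held 3 control and 8 irradiated peaks. Those of lowest q, at different sites, had folds of 3.40 and 4.81 and q of 0.831 and 0.0119. Under a q limit of 0.05, this list had 0 control and 2 irradiated genes of 26, the latter Mov10l1 and Tex14. Over all genes the shares were 0.516% and 2.08%. The lists share 8 genes.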

How the data were processed

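H3K27me3 ChIP-seq peak lists of 1 control and 1 irradiated GL261 library were used. Per the labels' protocols, chromatin was fixed with 1% formaldehyde, sheared to 300 to 500 bp and sequenced in pairs of 150-bp reads; BWA, deepTools and the build mm10 are named, with no version, per the submitters' processing notes. No source used here states the peak caller or its settings. Lists were made per library, not on pooled samples. The deposited start, end and summit are positions in bp. The deposited score equals the −log10 p times 10, with decimals dropped. As a ratio, the authors give the fold at the summit over their background. The deposited −log10 p values are unadjusted and the deposited −log10 q values adjusted; p reached at most 0.00495 (control) and 0.00499 (irradiated), so most peaks are weak, and 6.84% and 15.2% had a q of at most 0.05.

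There were 9866 control and 16091 irradiated peaks after 215 and 679 lines with a further summit of the same interval were merged and the values at the summit with the lowest p kept. The total reads are unknown. Reads and background at summits were recovered from fold and p by a Poisson model (tolerance 0.001 in −log10 p), which solved 100% of lines, with several solutions in 0% and 0.286%. It was right for 100% of 3872 and 3881 peaks simulated under the same model, which checks the solving and cannot show that the authors' caller used this model. A common peak caller uses this model, but no label names one. One read counted as 0.620 and 0.554 scaled reads, and the lowest background of each list corresponded to 1.48 and 1.27 ChIP reads per position.

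Genes came from RefSeq (GRCm38.p6, the assembly of mm10), with a peak assigned by an overlap of at least 1 bp with the gene and 2000 bp on each side. Gene starts and strands came from the promoter table. Of the list entries, 1 (Dnmt3c) matched no gene. The members, gene lists, promoter letters and alternatives were chosen with earlier results of these data known. Genes named are the 3 members, up to 4 others per list with the lowest q, neighbours within 100 kb, and up to 3 genes per member of most like peak numbers, predicted genes left out. Spocd1, the list genes named as having no peak, and the genes named beside Mov10l1 for many irradiated and few control peaks were chosen outside this rule, with their values seen. No test between conditions was made with 1 library per group. No genome sequence was used, so peak sequences are not shown. Python 3.11.15, pandas 2.3.3, numpy 2.4.6, scipy 1.17.1 and matplotlib 3.10.9 were used.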

Additional observations from a re-analysis of the deposited data

How the results depend on the processing

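Most of the numbers that moved did so with the calling threshold. Under a q limit of 0.05, Mov10l1 kept 2 irradiated and 0 control peaks, Asz1 had 0 control peaks, Dnmt3l 0 irradiated peaks, and 0 shared peaks were left. The genes with a control peak then numbered 0 in the piRNA list and 0 in the silenced germline list, and those with an irradiated peak 3 in the piRNA list and 0 in the DNA methylation list. With a −log10 p of at least 5, Mov10l1 had 3 irradiated and 0 control peaks, Asz1 0 control and Dnmt3l 0 irradiated peaks, 0 peaks were shared, both lists of silenced and piRNA genes had 0 genes in the control list, and the DNA methylation list 0 in the irradiated one. The Asz1 peak lies outside the gene, and with 0 or 500 bp in place of 2000 bp on each side Asz1 had 0 control peaks. With equal numbers of peaks from both lists Mov10l1 had 10 irradiated peaks, and with peaks within 1000 bp merged 12. The other definitions of a shared peak gave the same number, 1. In all, 94 of the values under the alternatives stayed within 1.5 times the reported number and 19 moved further. The 94 include values that were 0 from the start, which stricter limits cannot move, and the fall of Mov10l1 from 15 to 10 irradiated peaks. This tally is thus no measure of stability. No paired analysis was possible because there is 1 library per group.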

Other observations

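Mov10l1 was 1 of 72 protein-coding genes with at least 15 irradiated peaks, and 1 of 6 of these with at most 1 control peak. The other 5 were singled out after their values were seen. Zbtb7c, a zinc finger gene on chromosome 18, held 28 irradiated peaks and 1 control peak. Csmd2, a large membrane protein gene on chromosome 4, held 22 and 1. Vwf, the gene for von Willebrand factor on chromosome 6, held 19 and 0, and Slc2a9, a urate transporter gene on chromosome 5, held 15 and 1, as did Enthd1 on chromosome 15. All 5 are longer than Mov10l1, with spans of 113469 bp (Enthd1) to 581156 bp (Csmd2) against 72262 bp.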
